A study of Mus musculus with 20 samples.

Results

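The Dlk1-Dio3 locus is an imprinted region of mouse chromosome 12, and the genes followed here were the long non-coding RNAs Meg3, Rian and Mirg and the protein-coding genes Dlk1, Rtl1 and Dio3. They were chosen by name, as the rows of the count table whose Ensembl identifiers carry those symbols, and all 6 were found among 56941 rows. Their counts came from the soleus, a postural hind-limb muscle rich in slow fibres, of 20 C57BL/6J mice. Whole muscles from one hind limb of 10 exposed mice, which had their hind limbs unloaded for 14 days and also received ionizing radiation and, through the diet, a stress hormone, were set against those of 10 control mice, which had sham irradiation and were otherwise housed alike. The 3 exposures were always given together, so their effects cannot be told apart. RNA depleted of ribosomal RNA was sequenced, and the libraries held between 17336017 and 43424464 counted reads.

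At this locus the parental copy decides which genes are transcribed. In the mouse the paternal copy gives Dlk1, Rtl1 and Dio3, whereas the maternal copy gives Meg3, Rian, Mirg and large groups of microRNAs (miRNAs) and small nucleolar RNAs (snoRNAs), many of which are cut from those long transcripts. A control region between Dlk1 and Meg3, methylated on the paternal copy, keeps the pattern in place. Meg3 and Dlk1 are abundant in embryonic muscle, and the locus is active in muscle stem cells. The libraries came from 1 inbred strain and carry no allelic information, so the parental copy behind each transcript was not measured.

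The promoters of Meg3 and Rian are shown because these 2 transcripts carry most of the locus' signal in soleus and their ratio differed between the groups. The sequences are RefSeq's on build GRCm38.p6, run from 250 bases before to 50 bases after an annotated start, and lie on the plus strand. Capitals mark the full cyclic AMP response element TGACGTCA in Meg3 and an E-box (CANNTG) in Rian, and both strands were searched.
Meg3, chr12:109540746-109541045: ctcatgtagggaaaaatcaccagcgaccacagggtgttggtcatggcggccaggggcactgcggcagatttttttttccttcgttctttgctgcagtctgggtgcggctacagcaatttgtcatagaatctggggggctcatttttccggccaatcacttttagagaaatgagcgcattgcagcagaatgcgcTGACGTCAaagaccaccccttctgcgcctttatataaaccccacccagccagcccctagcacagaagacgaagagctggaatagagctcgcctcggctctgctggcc
Rian, chr12:109603695-109603994: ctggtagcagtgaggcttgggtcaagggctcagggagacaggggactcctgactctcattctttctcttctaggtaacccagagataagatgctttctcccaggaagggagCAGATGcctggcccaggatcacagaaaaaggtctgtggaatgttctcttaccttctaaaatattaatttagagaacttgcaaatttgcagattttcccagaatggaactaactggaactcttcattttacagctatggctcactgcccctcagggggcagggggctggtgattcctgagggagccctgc
The response element of Meg3 starts 57 bases before the start site shown, and 1.79% of 32851 mouse promoters of this length hold one. The Rian window has 1 E-box, 139 bases before the start, and 72.3% of all promoters hold at least 1. The printed Meg3 window has 13 CG dinucleotides and the Rian window has 0, against a median of 7 over all promoters. Meg3 has a second annotated start, not printed here, whose window has 1 CG dinucleotide, 1 E-box and no such response element. A match to such letters is a description and not evidence of binding.

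RefSeq's table also lists 113 mature miRNAs between Dlk1 and Dio3, from 61 miRNA genes, with 104 distinct seeds (bases 2 to 8). A hairpin is listed for 58 of these genes. Placed on the GENCODE gene models, 9 hairpins lie in Mirg exons, 5 in Mirg introns, 3 in Rian introns and 1 in a Meg3 exon. A further 7 overlap an Rtl1 exon, and 33 lie outside these genes. The miRNAs that face Rtl1 are shown with the Rtl1 stretch they pair with, because they make the Rtl1 count hard to assign to a strand. In the miRNAs capitals mark the seed, and in the Rtl1 sites capitals mark its complement.
miR-127-3p: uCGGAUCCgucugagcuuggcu
Rtl1 site of miR-127-3p: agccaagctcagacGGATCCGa
miR-433-3p: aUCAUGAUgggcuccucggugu
Rtl1 site of miR-433-3p: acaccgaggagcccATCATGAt
miR-136-5p: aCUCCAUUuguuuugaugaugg
Rtl1 site of miR-136-5p: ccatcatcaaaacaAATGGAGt
miR-431-5p: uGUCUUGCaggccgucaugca
Rtl1 site of miR-431-5p: tgcatgacggcctGCAAGACa
A script searched the 6358-base Rtl1 transcript for the reverse complement of each mature miRNA of the locus, and 11 matched over their whole length, including the 4 printed. How reads were assigned to strands is not stated in the labels, so reads of Rtl1 and of the transcript that carries these miRNAs cannot be told apart.

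Exposed replicates 1 to 4 stood apart by markers of Schwann cells, the myelinating cells of nerve. The summed level of 10 Schwann markers was 526 to 1524 CPM (read counts relative to library size, scaled by edgeR's TMM factors) in those 4 libraries, 97.1 to 187 CPM in exposed replicates 5 to 10 and 96.6 to 197 CPM in controls, and 10 of 10 markers were called as higher. Without those 4 libraries 4 were called as higher and 1 as lower. Over all 20 libraries 28.7% of all tested genes were called as higher and 28.9% as lower.

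Rian was lower in exposed than in control soleus. This nuclear long non-coding RNA, which hosts box C/D snoRNAs, was measured at 7.87 CPM in the lowest, 9.10 in the median and 10.6 in the highest exposed library, against 8.22, 12.2 and 20.0 CPM in control libraries. All 10 exposed libraries lay below the control mean, and 8 of 10 control libraries lay above the highest exposed one, although the ranges overlapped through the other 2 controls. Means were 9.01 ± 0.79 CPM in exposed and 12.7 ± 3.29 CPM in control libraries (SD, n = 10 each). The log2 fold change, exposed over control, was -0.49 with an SE of 0.12, a 1.41-fold lower level (adjusted p = 0.00082, edgeR quasi-likelihood test with Benjamini-Hochberg adjustment over 16778 genes).

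That call has to be read against how common calls were in this comparison. Of the 16778 genes that passed the count filter, 57.6% were called at an adjusted p under 0.05, 28.7% as higher and 28.9% as lower in exposed muscle. The share of calls that were higher was 49.8%, against 58.8% with upper-quartile factors and 61.3% with library size alone, and scaling by library size alone moved the median log2 fold change of all tested genes to 0.10. Of the 3 locus genes that passed the filter, 1 was called, so the locus did not stand out in the number of calls. By size, 12.0% of tested genes had a log2 fold change below that of Rian and 28.3% had one below that of Meg3, and the median over all tested genes was 0.02.

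**Figure D1:**
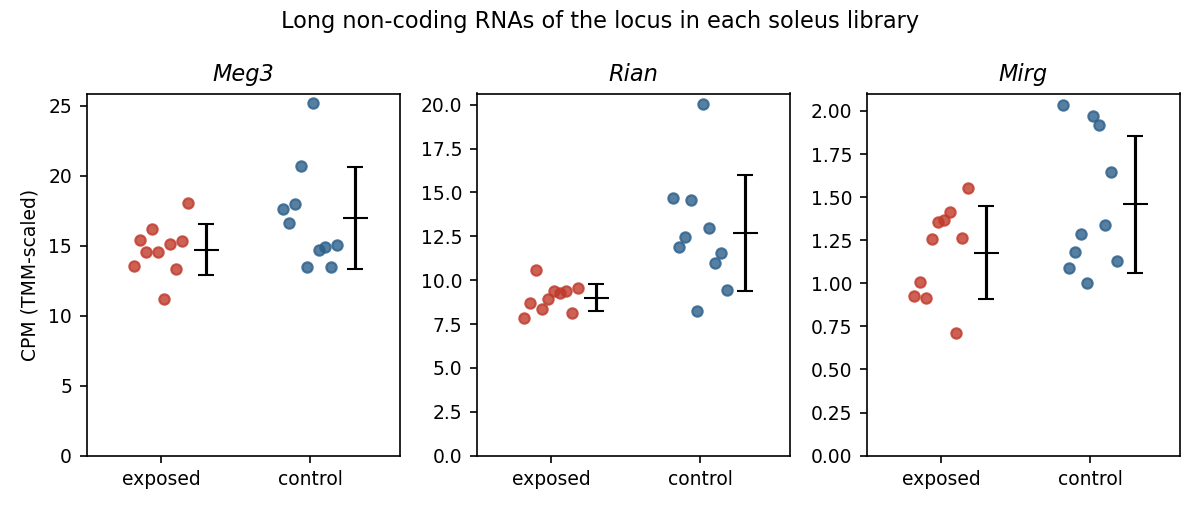
Meg3, Rian and Mirg in each library, with CPM scaled by TMM factors on the vertical axis, exposed libraries in red and control libraries in blue, and the group mean and SD as a black bar at the right of each group. For Rian the exposed libraries span 7.87 to 10.6 CPM and 8 of 10 control libraries lie above them, whereas the groups of Meg3 and Mirg overlap widely.

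Meg3 is the long non-coding RNA at the head of the maternally expressed group. It had 11.2, 14.9 and 18.0 CPM in the lowest, median and highest exposed libraries, against 13.5, 15.8 and 25.2 CPM in control libraries. The groups overlapped over most of their range, with 9 of 10 exposed libraries below the control mean. Means were 14.7 ± 1.83 CPM in exposed and 17.0 ± 3.66 CPM in control libraries (SD, n = 10 each). The log2 fold change was -0.21 with an SE of 0.11 and did not pass the threshold (adjusted p = 0.088, edgeR). The 95% interval of the difference in mean log2 CPM ran from -0.41 to 0.04. Meg3 lay close to the threshold, and leaving out exposed replicate 10 gave an adjusted p of 0.0483, against 0.0485 without control replicate 5 (edgeR). Other settings moved it away from the threshold: without control replicate 6 the log2 fold change was -0.13 (adjusted p = 0.198), and the adjusted p was 0.226 with upper-quartile factors, 0.329 with library size alone and 0.195 without exposed replicates 1 to 4 (edgeR).

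Mirg, which hosts a part of the large miRNA cluster, was the least abundant of the 3 long non-coding RNAs. It had 0.71, 1.26 and 1.55 CPM in the lowest, median and highest exposed libraries, against 1.00, 1.31 and 2.04 CPM in control libraries. The values of the groups overlapped, and the medians lay close together. The log2 fold change was -0.30 and did not pass the threshold (adjusted p = 0.11, edgeR), with a 95% interval of the difference from -0.62 to 0.04 on the log2 scale.

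Per kilobase of annotated exon, the order of levels was the same in both groups. Meg3 had 0.81 CPM per kilobase in exposed and 0.94 in control libraries, and Rian had 0.49 in exposed and 0.70 in control libraries. Mirg followed with 0.16 in exposed and 0.20 in control libraries. Dio3, Dlk1 and Rtl1 lay far below them, at no more than 0.0425 CPM per kilobase in either group. These 3 are all within a few reads per library, and their order is not resolved at this depth.

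Dlk1, a membrane-bound and shed relative of the Notch ligands, was barely detected. It had 28 reads over the 10 exposed libraries and 26 over the 10 control libraries, with at most 7 in an exposed and 6 in a control library. No read was counted in 3 exposed and 1 control libraries. At 3 counts of the library total this allows up to 0.103 CPM in the deepest of them, exposed replicate 9. In the shallowest, control replicate 9, it allows up to 0.173 CPM. Exposed replicates 1 to 4, the libraries with more Schwann marker RNA, held 21 of the 28 exposed reads, with 3 to 7 in each, and exposed replicates 5 to 10 held 7, with 0 to 4 in each, against 0 to 6 in a control library. In the edgeR fit with no filter on low counts, in which 29.0% of 35464 genes were called, the log2 fold change was 0.04 (adjusted p = 0.99), and without exposed replicates 1 to 4 it turned to -1.01 (adjusted p = 0.332). The part of the Schwann marker RNA in the Dlk1 count was not tested.

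Rtl1, a gene derived from a retrotransposon that is needed in the placenta and in fetal muscle, had 24 reads in exposed and 12 in control libraries. It had no read in 1 exposed and 5 control libraries, and at most 7 in an exposed and 5 in a control library. The difference did not pass the threshold (adjusted p = 0.29, edgeR with no filter). In RefSeq its span is longer than in GENCODE and overlaps the end of Meg3 and the start of Rian.

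Dio3, the deiodinase that inactivates thyroid hormone, had 26 reads in exposed and 25 in control libraries. It had no read in 1 exposed and 2 control libraries, and at most 6 in an exposed and 5 in a control library. The values overlapped completely (adjusted p = 1.00, edgeR with no filter). For all 3 protein-coding genes, a difference was not detectable at this depth, which is not evidence that there was none.

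Dio3os, a non-coding RNA transcribed away from Dio3 on the opposite strand, was counted more often in exposed muscle. It had 109 reads in exposed and 61 in control libraries, and averaged 0.35 ± 0.14 CPM in exposed and 0.19 ± 0.09 CPM in control libraries (SD, n = 10 each). It exceeded the control mean in 10 of 10 exposed libraries. It failed the count filter of the main fit, and in the fit with no filter it was 1.79-fold higher (adjusted p = 0.033, edgeR). Without exposed replicates 1 to 4 the log2 fold change was 0.68 and the call was lost (adjusted p = 0.18, edgeR with no filter), as it also was without any one of exposed replicates 2, 4 and 5 or control replicates 1, 9 and 10. Dio3os was singled out after its values were seen.

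**Figure D2:**
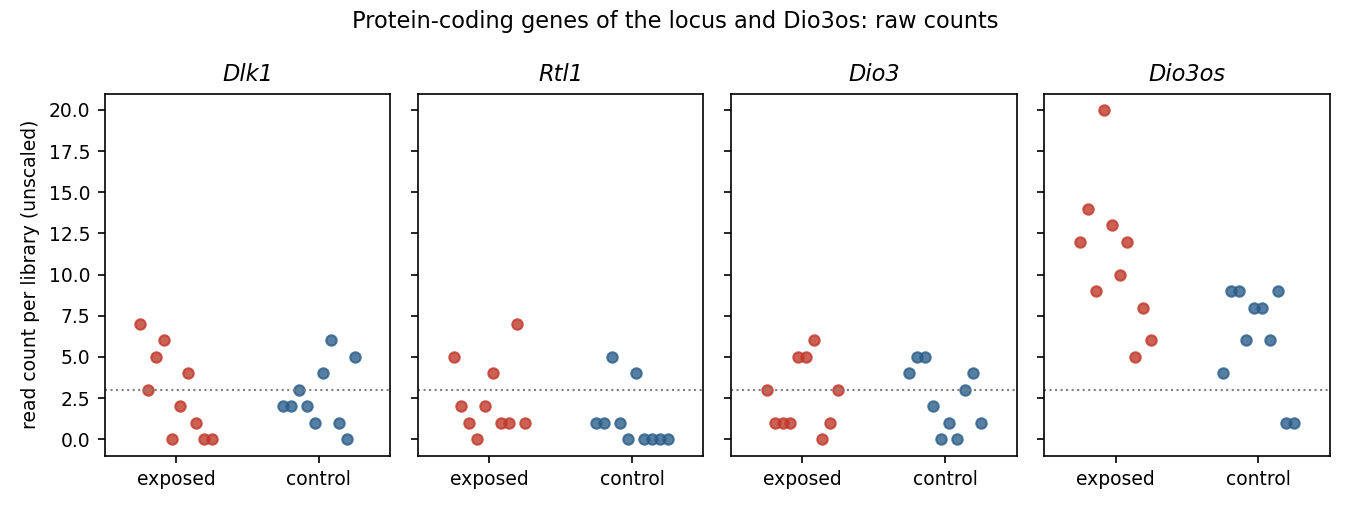
Unscaled read counts per library of Dlk1, Rtl1, Dio3 and the opposite-strand RNA Dio3os, exposed in red at the left and control in blue at the right, with a dotted line at 3 counts. Dlk1, Rtl1 and Dio3 stay at 7 counts or below in every library, and Dio3os reaches higher in several exposed libraries.

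The rest of the interval was sparse. The annotation places 118 genes between Dlk1 and Dio3, of which 99 had a row, 70 had any count and 5 passed the filter. Besides Meg3, Rian and Mirg these were Gm37899 and B830012L14Rik, non-coding transcript models between Rian and Mirg. Gm37899 averaged 1.20 ± 0.18 CPM in exposed and 1.39 ± 0.45 CPM in control libraries (SD, n = 10 each). B830012L14Rik averaged 1.79 ± 0.40 CPM in exposed and 2.16 ± 0.54 CPM in control libraries (SD, n = 10 each). Neither passed the threshold, with adjusted p values of 0.30 for Gm37899 and 0.12 for B830012L14Rik (edgeR).

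Levels of the small RNAs themselves cannot be read from these libraries, which were made from total RNA depleted of ribosomal RNA. How far the libraries kept mature small RNAs was not measured. The 59 miRNA rows of the interval together held 20 to 53 reads in an exposed library, with a median of 28.5, and 12 to 71 reads in a control library, with a median of 37. No single row exceeded 8 reads. The 18 snoRNA rows held 2 to 15 reads in an exposed library, with a median of 4, and 2 to 12 in a control library, with a median of 8. Reads in such rows can come from the host transcript, and no test was made on them.

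Rian fell relative to Meg3 within the same libraries, a measure that needs no scaling between libraries. The count ratio of Rian to Meg3 was 0.62 ± 0.10 in exposed and 0.75 ± 0.09 in control libraries (SD, n = 10 each), and 9 of 10 exposed libraries lay below the control mean. The difference in mean log2 ratio was -0.27 with an SE of 0.09 and a 95% interval from -0.46 to -0.07 (2-sided permutation test, p = 0.011, adjusted p = 0.034 over 3 ratios). The call lay close to the threshold. Without exposed replicates 1 to 4 the difference was -0.23 with an adjusted p of 0.16 (permutation test). Leaving out any one of exposed replicates 1, 2, 4, 9 and 10 or control replicates 1, 6, 7 and 9 took the adjusted p to between 0.0552 and 0.0646 (permutation tests), while the difference stayed between -0.32 and -0.24 in all 20 such runs.

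The other ratios did not pass the test. Mirg to Meg3 was 0.082 in exposed and 0.089 in control libraries, and the log2 difference of -0.11 had an interval from -0.46 to 0.24 (permutation test, adjusted p = 0.50). Mirg to Rian was 0.13 in exposed and 0.12 in control libraries, and the log2 difference of 0.16 had an interval from -0.15 to 0.47 (permutation test, adjusted p = 0.44).

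**Figure D3:**
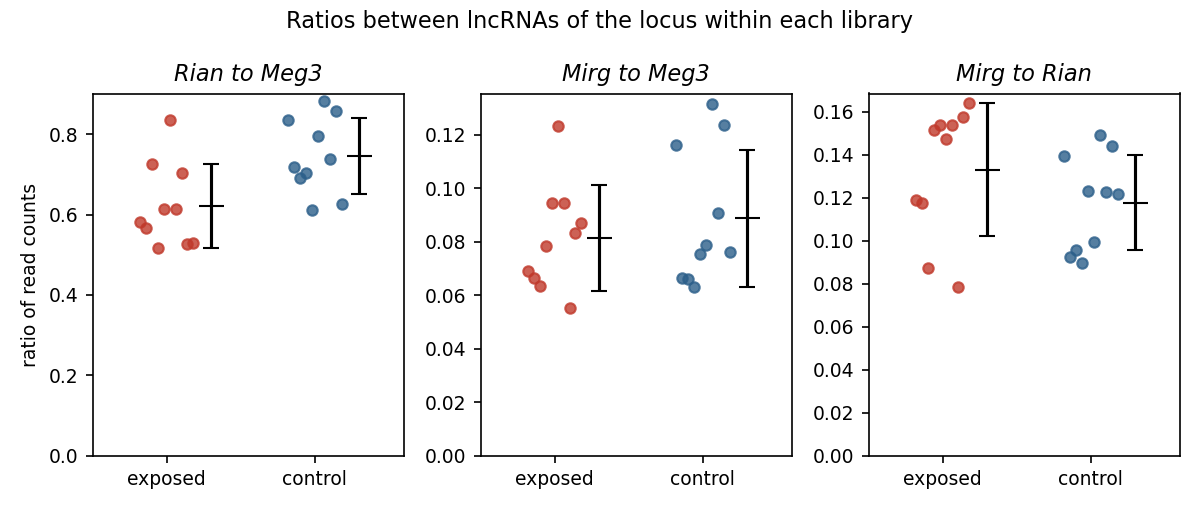
Ratios of read counts between pairs of long non-coding RNAs within each library, exposed in red at the left and control in blue at the right, with the mean and SD as a black bar beside each group. Rian to Meg3 averages 0.62 in exposed and 0.75 in control libraries, with ranges of 0.52 to 0.84 and 0.61 to 0.88. The groups overlap in every panel.

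Rian and Meg3 varied together among control mice by Pearson's r, and no relation was detected among exposed mice. Over the 10 exposed libraries Pearson's r of log2 CPM was -0.05 (permutation p = 0.892, adjusted p = 0.962 over 9 relations) and Spearman's rho was -0.09 (permutation p = 0.813, adjusted p = 0.944), and r was -0.14 without exposed replicates 6 and 10. Over the 10 control libraries r was 0.861 (permutation p = 0.00137, adjusted p = 0.0123) and rho was 0.758 (permutation p = 0.015, adjusted p = 0.0883). Control replicate 6 was highest for both, with 25.2 CPM of Meg3 and 20.0 CPM of Rian, and r was 0.648 without control replicates 4 and 6. The exposed libraries covered a narrow range of Rian, with an SD of 0.79 CPM in exposed against 3.29 CPM in control libraries. The difference between the groups' correlations was not tested.

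Rian and Mirg gave an r of -0.05 and a rho of 0.08 over exposed libraries (permutation p = 0.897 and 0.839). Over control libraries r was 0.722 and rho was 0.733 (permutation p = 0.0138 and 0.0196, adjusted p = 0.062 and 0.0883), with r at 0.512 without control replicates 5 and 6. Meg3 and Mirg gave an r of 0.322 over exposed and 0.329 over control libraries, and none of these passed adjustment (permutation tests, adjusted p = 0.71 for each). For this pair r was 0.7 without exposed replicates 6 and 10, and 0.1 without control replicates 4 and 6.

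**Figure D4:**
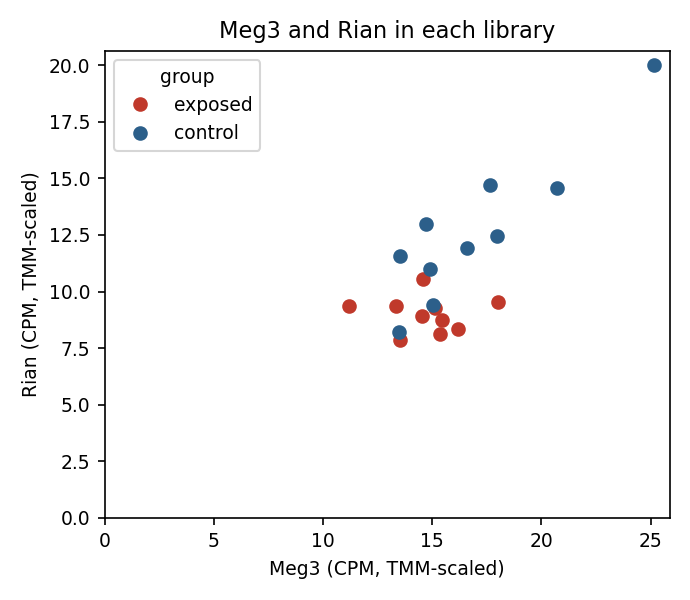
Rian against Meg3 in each library, both in CPM scaled by TMM factors, with exposed libraries in red and control libraries in blue. Exposed libraries lie in a flat band between 7.87 and 10.6 CPM of Rian, and control libraries rise along a diagonal up to replicate 6 at 25.2 CPM of Meg3 and 20.0 CPM of Rian.

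The genes most like Meg3 over the 20 libraries, after each group's mean was subtracted, were ranked by Pearson's r of log2 CPM as a description. The rule left out the locus, genes under 1 CPM and genes with provisional or missing symbols. First among the rest were Hoxb3os with r = 0.776, Col6a2 (a collagen VI chain) with 0.737 and Ganab (a glucosidase of the endoplasmic reticulum) with 0.71. Flna (filamin A, an actin crosslinker) with 0.709 and Chn1 with 0.697 followed. Among all 16777 genes these 5 ranked 1, 2, 4, 5 and 7. The likeness of the last 2 was uneven between groups, with r of 0.51 in exposed and 0.785 in control libraries for Flna, and 0.343 in exposed and 0.822 in control libraries for Chn1. Rian ranked 14 with r = 0.673, which came from -0.05 in exposed and 0.861 in control libraries, and Mirg ranked 1722 with r = 0.322. Hoxb3os overlaps genes on the other strand of its cluster, so its reads are uncertain. All of these share the libraries' depth and scaling.

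The genes that flank the interval from Dlk1 to Dio3 were mostly lower in exposed muscle too. Of the 5 nearest protein-coding genes on each side, 9 were tested, all 9 had a negative log2 fold change, and 7 were called as lower, with a median of -0.28, where 28.9% of all tested genes were called as lower. With upper-quartile factors or library size alone in place of TMM scaling all 9 were still negative, and 4 were called. Upstream, Wars, the cytosolic tryptophanyl-tRNA synthetase, fell to 23.8 ± 1.84 CPM in exposed against 31.9 ± 1.69 CPM in control libraries (SD, n = 10 each; adjusted p = 1.7e-08, edgeR). The mitochondrial carriers Slc25a29 and Slc25a47 had log2 fold changes of -0.51 and -0.28 and were called, whereas Wdr25 at -0.23 and Begain at -0.55 were not (adjusted p = 0.054 and 0.081, edgeR). The call of Slc25a47 was lost without any one of exposed replicates 5, 6 and 9 or control replicates 8, 9 and 10. Downstream, the cytosolic chaperone gene Hsp90aa1 averaged 27.2 ± 6.30 CPM in exposed and 42.6 ± 4.03 CPM in control libraries (SD, n = 10 each; adjusted p = 9.1e-06, edgeR), and it has processed copies that can share its reads. Ppp2r5c, a regulatory subunit of protein phosphatase 2A, had -0.22, Dync1h1, the dynein heavy chain, had -0.15 and Wdr20 had -0.11, all called. 1700001K19Rik had 1 read in each group and was not tested. The fall of Rian therefore lay within the range of its neighbours, from -0.64 to -0.11.

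**Figure D5:**
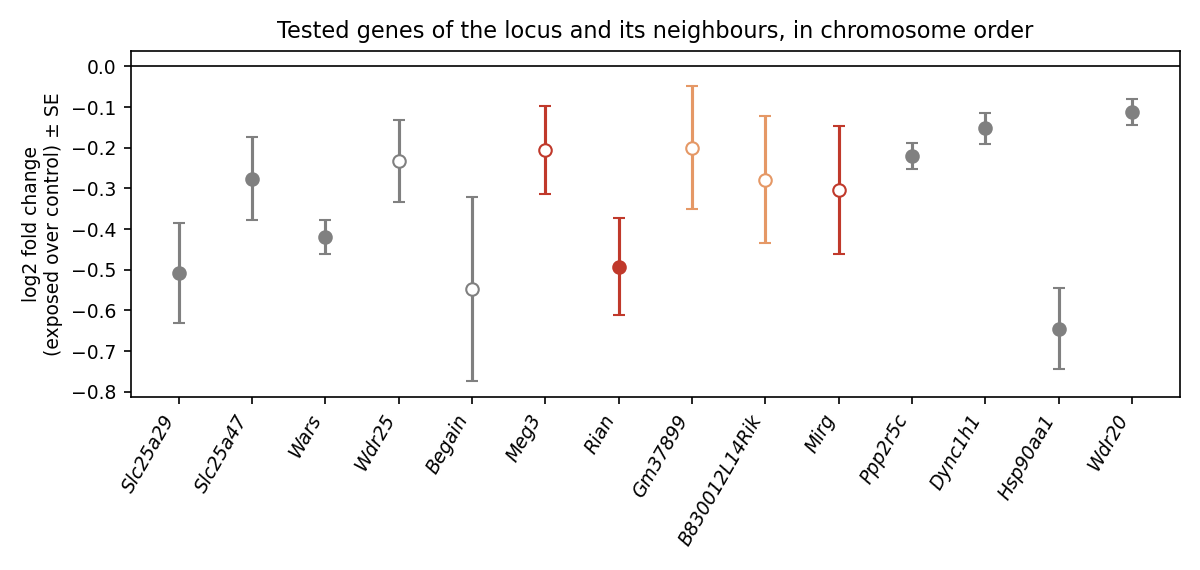
Log2 fold change (exposed over control, with its SE) of the 14 tested genes in and around the locus, placed in chromosome order at equal spacing. Red marks Meg3, Rian and Mirg, orange the other transcripts of the interval and grey the flanking genes, filled points passed the adjusted p threshold of 0.05, and all 14 lie below 0.

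Without exposed replicates 1 to 4, the libraries with more Schwann marker RNA, Rian remained lower, with a log2 fold change of -0.47 (adjusted p = 0.0119, edgeR), Meg3 had -0.21 and Mirg had -0.17. Over all 20 libraries other marker lists held called genes as well. Their counts stand against the 28.7% of all tested genes called as higher and the 28.9% called as lower. All 12 slow fibre markers fell, with sums of 8540 to 18500 CPM in exposed and 24430 to 33480 CPM in control libraries, and 10 of 12 fast fibre markers rose, with sums of 53840 to 71510 CPM in exposed and 15330 to 22840 CPM in control libraries. Of 8 markers of fibroadipogenic cells, which make the muscle's connective tissue, 2 rose and 4 fell, with sums of 514 to 751 CPM in exposed and 633 to 1372 CPM in control libraries. All 6 tendon markers fell, with sums of 131 to 224 CPM in exposed and 223 to 522 CPM in control libraries. Of 6 satellite cell markers 2 rose and 2 fell, with sums of 53.8 to 81.1 CPM in exposed and 90.9 to 115 CPM in control libraries. Of 7 endothelial markers 1 rose and 3 fell, of 6 macrophage and 6 adipocyte markers 1 each rose, and of 6 end plate markers 2 rose and 2 fell. Without exposed replicates 1 to 4 none of the macrophage or adipocyte markers was called. The summed adipocyte markers were 158 to 389 CPM in those 4 libraries, 27.4 to 168 CPM in exposed replicates 5 to 10 and 26.2 to 186 CPM in controls. No marker of these lists was at 0 in every library. The part of these shifts in the result for Rian was not tested, and in whole muscle fewer cells of a type and less RNA per cell cannot be told apart.

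Genes around the functions of the locus were described from lists chosen by role, and without exposed replicates 1 to 4 each list's count in either direction moved by at most 2 genes. Each count stands against the 28.7% of all tested genes called as higher and the 28.9% called as lower. Dlk1 acts beside the Notch pathway, in which ligands on one cell trigger cleavage of receptors on the next. Of 15 tested Notch genes 5 rose and 5 fell, with a median log2 fold change of -0.05 against 0.02 over all tested genes, and 6 rose and 3 fell with upper-quartile factors or library size alone. The ligand Dll1 averaged 19.0 CPM in exposed and 5.89 CPM in control libraries, a log2 fold change of 1.67, and the ligand Dll4 rose by 0.82 and the receptor Notch2 by 0.72, whereas the target Hes1 had -0.63 (adjusted p = 1.2e-05, 3.7e-08, 1.7e-07 and 6.3e-06, edgeR).

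Dio3 removes thyroid hormone, and genes that act on the same hormone were abundant enough to test. Of 15 tested genes that handle thyroid hormone 7 rose and 4 fell, with a median of -0.03. Dio2, the deiodinase that activates the hormone, had 1.72, 2.67 and 3.39 CPM in the lowest, median and highest exposed libraries, against 5.53, 8.25 and 10.7 CPM in control libraries. The groups did not overlap, and the log2 fold change was -1.68 (adjusted p = 9.5e-12, edgeR). The transporter Slc16a10 rose, at 58.6 ± 5.00 CPM in exposed and 23.3 ± 2.22 CPM in control libraries (SD, n = 10 each; log2 fold change 1.33, adjusted p = 3.2e-15, edgeR). The receptor partner Rxra and the coactivator Ncoa1 rose by 0.47 and 0.62 on the log2 scale. Of 15 genes known to respond to thyroid hormone in muscle 6 rose and 6 fell, with a median of 0.22, and 7 rose and 4 fell with upper-quartile factors. The fast calcium pump Atp2a1 rose by 1.29, the fast myosin Myh1 by 2.07 and the glycerol phosphate dehydrogenase Gpd2 by 1.04, whereas phospholamban, Pln, had -2.14. These lists share fibre-type genes with the marker lists above.

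Of 13 tested genes that keep imprints and DNA methylation in place 4 rose and 0 fell, with a median of 0.06. Tet3, which oxidises methylated cytosine, had a log2 fold change of 0.46, Aff3 had 0.36, and the imprint factors Trim28 and Zfp445 had 0.18 and 0.14. Zfp57, which binds methylated imprints in the embryo, averaged 0.44 CPM in exposed and 0.63 CPM in control libraries and did not pass the threshold (log2 fold change -0.51, adjusted p = 0.066, edgeR), nor did Uhrf1, a cofactor of maintenance methylation, at -0.55 (adjusted p = 0.084, edgeR). Without exposed replicates 1 to 4, 3 of the 13 rose and the call of Aff3 was lost (log2 fold change 0.17). Polycomb repressive complex 2, which Meg3 binds in stem cells, had 6 of 11 genes higher and 0 lower, with a median of 0.20, against 28.7% higher and 28.9% lower over all tested genes. These included Ezh1, Mtf2, Jarid2 and Eed, with log2 fold changes of 0.42, 0.42, 0.40 and 0.20.

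MEF2 factors activate the locus in mouse muscle cells, and class II histone deacetylases hold them back. Of 8 tested genes 3 rose and 1 fell. Hdac4 rose by 1.18 on the log2 scale, with 180 ± 51.3 CPM in exposed and 79.0 ± 9.96 CPM in control libraries (SD, n = 10 each; adjusted p = 7.5e-07, edgeR). Mef2a rose by 0.39, Hdac5 by 0.14, and Mef2c had -0.39.

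Genes that process the small RNAs moved in both directions. Of 13 miRNA processing genes 7 rose and 3 fell, with a median of 0.13. Tnrc6a, Ago1 and Ago3, parts of the silencing complex, had 0.37, 0.38 and 0.25, and Tarbp2, a Dicer partner, had -0.42. Prkra and Ago4 were called as lower too, with -0.43 and -0.26, so the Ago genes did not move 1 way. Of 9 genes of the box C/D snoRNA particle 1 rose and 2 fell, against 2 higher and 1 lower with upper-quartile factors or library size alone. Nop56 had 0.36, Snu13 had -0.18 and Ruvbl2 had -0.14, a call that was lost under both of those scalings. Znhit3 had -0.18 and did not pass the threshold (adjusted p = 0.096, edgeR).

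Other long non-coding RNAs of the nucleus or of imprinted loci moved in both directions. Of 12 tested, 7 rose and 2 fell, with a median of 0.42. H19, the maternally expressed RNA of the Igf2 locus, fell to 343 ± 96.1 CPM in exposed against 1366 ± 115 CPM in control libraries (SD, n = 10 each), a log2 fold change of -1.99 (adjusted p = 1.3e-11, edgeR). The imprinted Peg13 rose, at 39.9 ± 3.88 CPM in exposed and 23.5 ± 1.76 CPM in control libraries (SD, n = 10 each; log2 fold change 0.76, adjusted p = 2.8e-11, edgeR). Jpx and Ftx, from the X inactivation centre, rose by 0.77 and 0.53 on the log2 scale. Rian, at -0.49, moved in the direction of the 2 that fell and opposite to the 7 that rose. It fell by less than H19 and by more than Snhg14, which had -0.33.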

How the data were processed

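RNA was measured in 20 soleus samples, 10 exposed and 10 control. Per the labels' protocols, ribosomal RNA was depleted from 90 ng of total RNA and sequencing was paired-end (NovaSeq X Plus). A table of raw counts, a row per Ensembl gene and not normalized, was deposited by the authors. The submitters' processing notes name the build GRCm39, MultiQC 1.15, Subread, featureCounts 1.5.1 and edgeR, and neither their roles, the strand setting nor the handling of multiply matching reads is given there. Table columns were matched to samples by the library code in the labels.

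Symbols, gene classes, exon lengths and gene order came from GENCODE M21 on GRCm38, matched by Ensembl identifier for 51948 rows with 97.6% of counts. Printed coordinates and sequences are RefSeq's on GRCm38.p6 and do not apply to GRCm39. Motifs and miRNA sites were found by exact search. Protein sequences were not used here.

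Counts were tested in R 4.3.3 with edgeR 4.0.16 (filterByExpr with minimum count 10 and minimum total 15, TMM factors, robust quasi-likelihood fit, no covariate), with Benjamini-Hochberg adjustment over 16778 genes and a threshold of 0.05. Genes under the filter took their p from a fit with no filter. CPM used TMM-scaled library sizes, and log2 CPM a prior count of 2. An SE or 95% interval is that of the difference in mean log2 CPM over libraries. Ratios used log2 of counts plus 0.5, with 2-sided permutation tests of 100000 resamples, adjusted over 3 ratios. Correlations used log2 CPM within a group, with permutation p values adjusted over 9 relations (scipy 1.17.1). The 9 were 3 gene pairs, each in controls, in all exposed libraries and in exposed replicates 5 to 10, a part of the same libraries. In that part r was -0.11 for Meg3 and Rian, 0.35 for Meg3 and Mirg and -0.04 for Rian and Mirg, and none passed adjustment. The limit that a count of 0 allows was set at 3 counts per library and covers counting error alone. The fit was tested on simulated data in which few genes changed. That test cannot show how the scaling behaves where 57.6% of genes were called. DESeq2 1.42.0, limma 3.58.1 voom and other scalings, filters and left-out libraries were alternatives. The labels name no cage, litter or batch, so a p value reflects only how these samples spread.

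The locus genes, the gene lists and the tests were chosen with earlier results of these data known, and lists are described by counts and medians only. Beyond the locus genes, the text names the rows of the interval that passed the filter, the 5 nearest protein-coding genes on each side, up to 4 genes of each list with the smallest p and the 5 genes most like Meg3 by the rule given with them. Dio3os, Zfp57, Uhrf1, Snhg14, Prkra and Ago4 fall outside that rule and were chosen after their values were seen.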

Additional observations from a re-analysis of the deposited data

Results flagged for a closer look

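Of 124 groups of 10 values examined, 9 held a library far from the other 9, by a test that flags about 1 in 20 groups by chance, and none was of a gene of the locus itself. Hsp90aa1 read 43.7 CPM in exposed replicate 7, against 22.9 to 29.9 CPM in the other exposed libraries. Dll1 read 37.1 CPM in exposed replicate 1, against 11.0 to 23.1 CPM in the other exposed libraries, and 13.6 CPM in control replicate 3, against 3.52 to 7.50 CPM in the other controls. Chn1 read 5.39 CPM in exposed replicate 4, against 3.20 to 4.21 CPM in the other exposed libraries. Control replicate 5 had the lowest Myh1, at 1632 CPM against 2923 to 4377 CPM, and the highest Tet3, at 61.7 CPM against 41.4 to 49.4 CPM. Control replicate 6, the highest control for Meg3 and Rian, had the lowest Eed, at 11.6 CPM against 12.9 to 14.3 CPM, and the lowest Hdac5, at 75.0 CPM against 84.3 to 93.5 CPM. Mef2c read 1143 CPM in control replicate 8, against 915 to 1035 CPM in the other controls.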

How the results depend on the processing

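Rian stayed lower and called under every alternative run, with log2 fold changes from -0.55 to -0.40 and adjusted p no higher than 0.0119 (edgeR, without exposed replicates 1 to 4). With one library left out at a time Meg3 ranged from -0.2415 to -0.1257, and it passed the threshold without exposed replicate 10 or control replicate 5 only. The sample numbers gave no sign of pairing: same-numbered libraries deviated from their group means with correlations from -0.13 to 0.10, and 0 of 10 correlated best with their own number. Such correlations cannot exclude a shared cage or batch, which the labels do not give. With the replicate block Rian had -0.46 (adjusted p = 0.0025, edgeR), Dlk1 -0.05034 and Dio3 -0.019, and the Rian to Meg3 difference of -0.2695 lost its call by sign flips (adjusted p = 0.076, permutation test). Dlk1 had no stable sign: -0.501 with voom, -1.008 without exposed replicates 1 to 4, and -0.1773 to 0.2633 leaving out one library, where Dio3 ranged from -0.1724 to 0.2216. Without exposed replicates 1 to 4 Rian to Meg3 was -0.2347 and Mirg to Meg3 turned to 0.02352, and leaving out one library Rian to Meg3 ranged from -0.319 to -0.2413. With library size alone the control correlation of Rian and Mirg was 0.752, past the threshold (permutation test, adjusted p = 0.0315), and that of Meg3 and Rian in exposed libraries turned to 0.0528. The cause was not tested in any of these. Of 1435 values for 48 other named genes, 0 reversed, 28 lost their call and 10 gained one. Dlk1, Rtl1, Dio3 and the small RNA rows are limited by depth.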
